A study of Caenorhabditis elegans with 30 samples.

Results

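The 102 genes of Caenorhabditis elegans whose symbol is flp- or nlp- followed by a number were followed across 30 libraries of whole worms. They comprised 31 flp and 71 nlp genes of the 46934 genes in the count table. Of these, 98 had more than 10 reads in at least 2 libraries (31 flp and 67 nlp genes), as did 15460 genes of the whole table. The 4 genes below that level were nlp-22, nlp-23, nlp-60 and nlp-81. They are named here but not tested.

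The series asked how loss of the histone reader SET-26 or of its partner HCF-1, each linked to a long life, alters transcripts with age, and whether depletion of the histone deacetylase HDA-1 alters that pattern. The libraries covered 3 genotypes: set-26(-), which is glp-1(e2141);set-26(tm2467), hcf-1(-), which is glp-1(e2141);hcf-1(pk924), and the control glp-1(e2141). The temperature-sensitive glp-1(e2141) allele was in every worm and leaves adults raised at 25 °C without a germline, so each comparison concerns the soma of hermaphrodites. Each genotype was sampled on empty vector bacteria (EV) at days 1, 3 and 12 of adulthood, and on bacteria that feed hda-1 RNAi from day 1 at days 3 and 12. Each of the 15 groups held 2 libraries of pooled worms, so the p-values measure only the spread between those samples.

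flp genes encode FMRFamide-like peptides and nlp genes encode other neuropeptide-like proteins. Neurons cut such precursors into short peptides, amidate many of them, store them in dense-core vesicles and release them onto G protein-coupled receptors, where they tune feeding, sleep, egg laying and locomotion. A group of nlp genes, nlp-24 to nlp-34, differs from the rest: it encodes peptides rich in glycine and aromatic residues, several of which the epidermis makes upon fungal infection or wounding, and which are known as antimicrobial peptides. In extracts of whole worms, fewer cells of a type and less RNA per cell cannot be told apart.

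Total reads per library ranged between 6045498 and 17748121 (median 8323966), of which 0.572 to 1.45% came from the 102 genes. Levels are given as CPM, the reads of a gene brought to a common library size and scaled by the trimmed mean of M-values (TMM). The reads mark transcript 3′ ends, so gene length does not enter a level. The TMM scaling factors spanned 0.6388 to 1.336 and were lowest in the control at day 1, at 0.6388 and 0.6993. The check of the labels gave a mixed answer. hcf-1 had 1.07 to 3.35 CPM in the 10 hcf-1(-) libraries, against 4.33 to 12.7 CPM in the 10 control libraries. set-26 had 11.9 to 23.4 CPM in the libraries labelled set-26(-), against 7.64 to 21.3 CPM in control libraries, and hda-1 had 252 to 1917 CPM in the 12 libraries labelled hda-1 RNAi, against 20.5 to 117 CPM in the 18 EV libraries. Neither set-26 nor hda-1 was lower in the libraries labelled for its loss, so "set-26(-)" and "hda-1 RNAi" mean libraries labelled so throughout. Whether the counted 3′ end of set-26 lies outside the deleted part, in which case it checks nothing, and whether RNA of the feeding construct was counted as hda-1, was not tested. The summed level of 12 neuron markers was 540 to 1063 CPM and that of 8 germline markers 4.20 to 42.0 CPM over the 30 libraries.

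Peptide genes spanned a wide range of levels, and several of the epidermal antimicrobial genes were at the top. Of the 102 genes, 16 averaged at least 100 CPM, 60 averaged 10 to under 100 CPM and 26 averaged less. nlp-27, an antimicrobial peptide gene, averaged 2668 CPM (1380 to 5541 CPM over the 30 libraries) and took 31.5% of all reads from the 102 genes. Next came nlp-28 at 617.9 CPM and nlp-29, the best-known infection-induced gene of the group, at 432.9 CPM. The other 9 of the 12 most abundant were nlp-40 (403 CPM), whose peptide is released by the intestine and times defecation, nlp-33 (400.2 CPM), nlp-31 (328.5 CPM), flp-6 (230.3 CPM), nlp-34 (201.9 CPM), flp-28 (195.7 CPM), nlp-36 (177.6 CPM), flp-14 (171.1 CPM) and flp-1 (158 CPM), which the AVK neurons make and which shapes locomotion. Together the 12 held 69.5% of the reads from the 102 genes. The antimicrobial genes nlp-24, nlp-25, nlp-26, nlp-30 and nlp-32 were not among the 12.

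**Figure D1:**
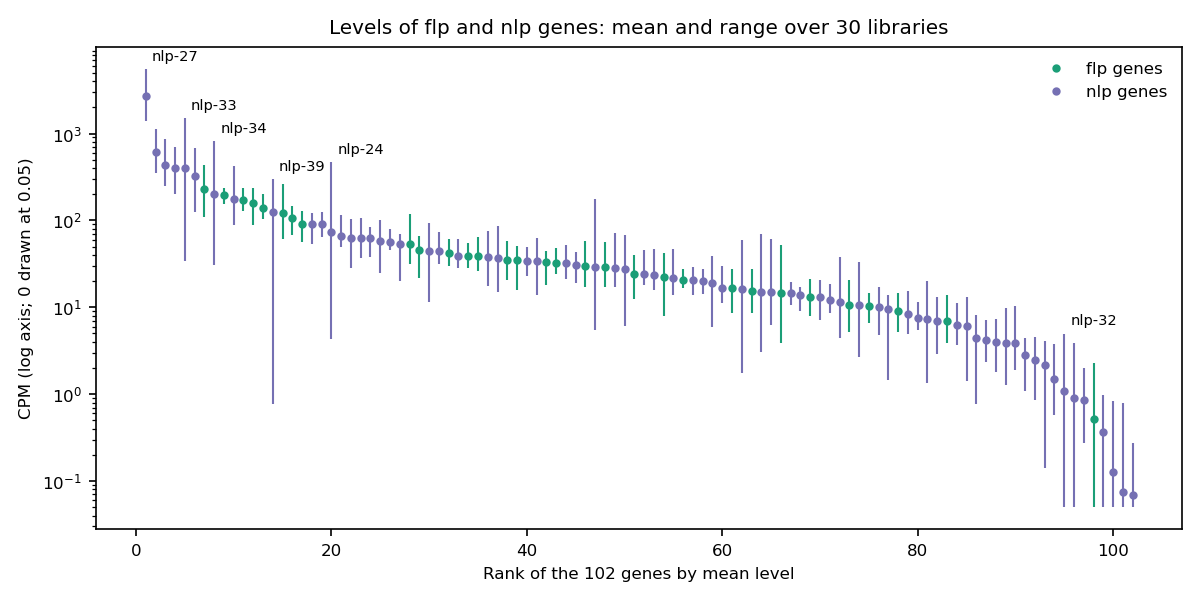
Level of each of the 102 flp and nlp genes, ranked by mean. The x axis is the rank and the logarithmic y axis is CPM (TMM-scaled). Dots are means and lines are the range over the 30 libraries, with 0 drawn at 0.05. nlp-27 stands at the top with a mean of 2668 CPM, and nlp-39 and nlp-24 have long range lines.

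Of the 12 most abundant genes, flp-28 and flp-14 varied least between groups. The highest group mean of flp-28 was 1.41 times its lowest and that of flp-14 was 1.5 times. The same ratio was 22.8 for nlp-33, 20.7 for nlp-34 and 257 for nlp-39. Over the genes that passed the read minimum its median was 2.05 for flp and 3.33 for nlp genes. It was at most 2 for 27 genes (13 flp and 14 nlp), between 2 and 10 for 60, and above 10 for 11. These were nlp-33, nlp-34, nlp-39, nlp-24, nlp-30, nlp-25, nlp-48, nlp-46, nlp-32, nlp-4 and flp-23. Low counts enter some of these ratios. nlp-46, nlp-32, nlp-4 and flp-23 had few reads, and nlp-39 had few at day 1. The medians include such genes.

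On the WBcel235 assembly, 32 of the 102 genes lie on chromosome X, 21 on V, 15 on IV, 13 on II, 12 on III and 9 on I. Of the antimicrobial genes, 6 sit next to each other on chromosome V, between the start of nlp-34 at 3978825 (minus strand, to 3979134) and the end of nlp-27 at 3989770 (plus strand, from 3989378), with nlp-31, nlp-30, nlp-29 and nlp-28 between them on the plus strand. nlp-33 (V, 11147346 to 11147737), nlp-24 (V, 11616376 to 11616828), nlp-25 (V, 19606180 to 19608419) and nlp-26 (V, 19613461 to 19614534) lie elsewhere on the plus strand of V, and nlp-32 (486114 to 486547, minus strand) lies on III. Reads with several mapping places were dropped, and how far this touches the counts of these neighbouring genes was not tested. nlp-39 lies on chromosome I at 12461656 to 12461895 on the plus strand.

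nlp-39 had the widest range of the 98 genes and was the one gene called in both mutants at day 3 and at day 12 on either diet, higher each time. At day 1 it was near the lower end of detection, with 3.68 and 0.773 CPM in set-26(-) worms, 1.26 and 0.968 CPM in hcf-1(-) worms, against 3.87 and 7.99 CPM in control worms. These levels rest on 20 and 5, 9 and 8, and 20 and 42 reads in the 3 genotypes in that order. At day 3 on EV it stood at 281 and 271 CPM in set-26(-), 284 and 289 CPM in hcf-1(-) and 182 and 167 CPM in control worms. At day 12 on EV it stood at 91.4 and 74.9 CPM in set-26(-), 123 and 81.8 CPM in hcf-1(-) and 21.5 and 11.5 CPM in control worms. The mutant and control libraries did not overlap on either day. The log2 difference at day 12 was 2.31 ± 0.33 (SE) in set-26(-) with an edgeR adjusted p of 0.00534, and 2.61 ± 0.33 in hcf-1(-) with an edgeR adjusted p of 0.00419. Both calls held when any of the 6 libraries was left out.

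On hda-1 RNAi at day 12, nlp-39 had 116 and 65.1 CPM in set-26(-) and 165 and 85.6 CPM in hcf-1(-) worms, against 26.2 and 18.9 CPM in control worms. The log2 differences were 2.01 ± 0.38 (edgeR adjusted p = 0.0211) and 2.48 ± 0.38 (edgeR adjusted p = 0.00948). At day 3 on EV they were smaller, 0.68 ± 0.16 (edgeR adjusted p = 0.0077) in set-26(-) and 0.72 ± 0.16 (edgeR adjusted p = 0.00535) in hcf-1(-) worms. In each genotype the day 12 libraries lay above those of day 1 and below those of day 3.

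**Figure D2:**
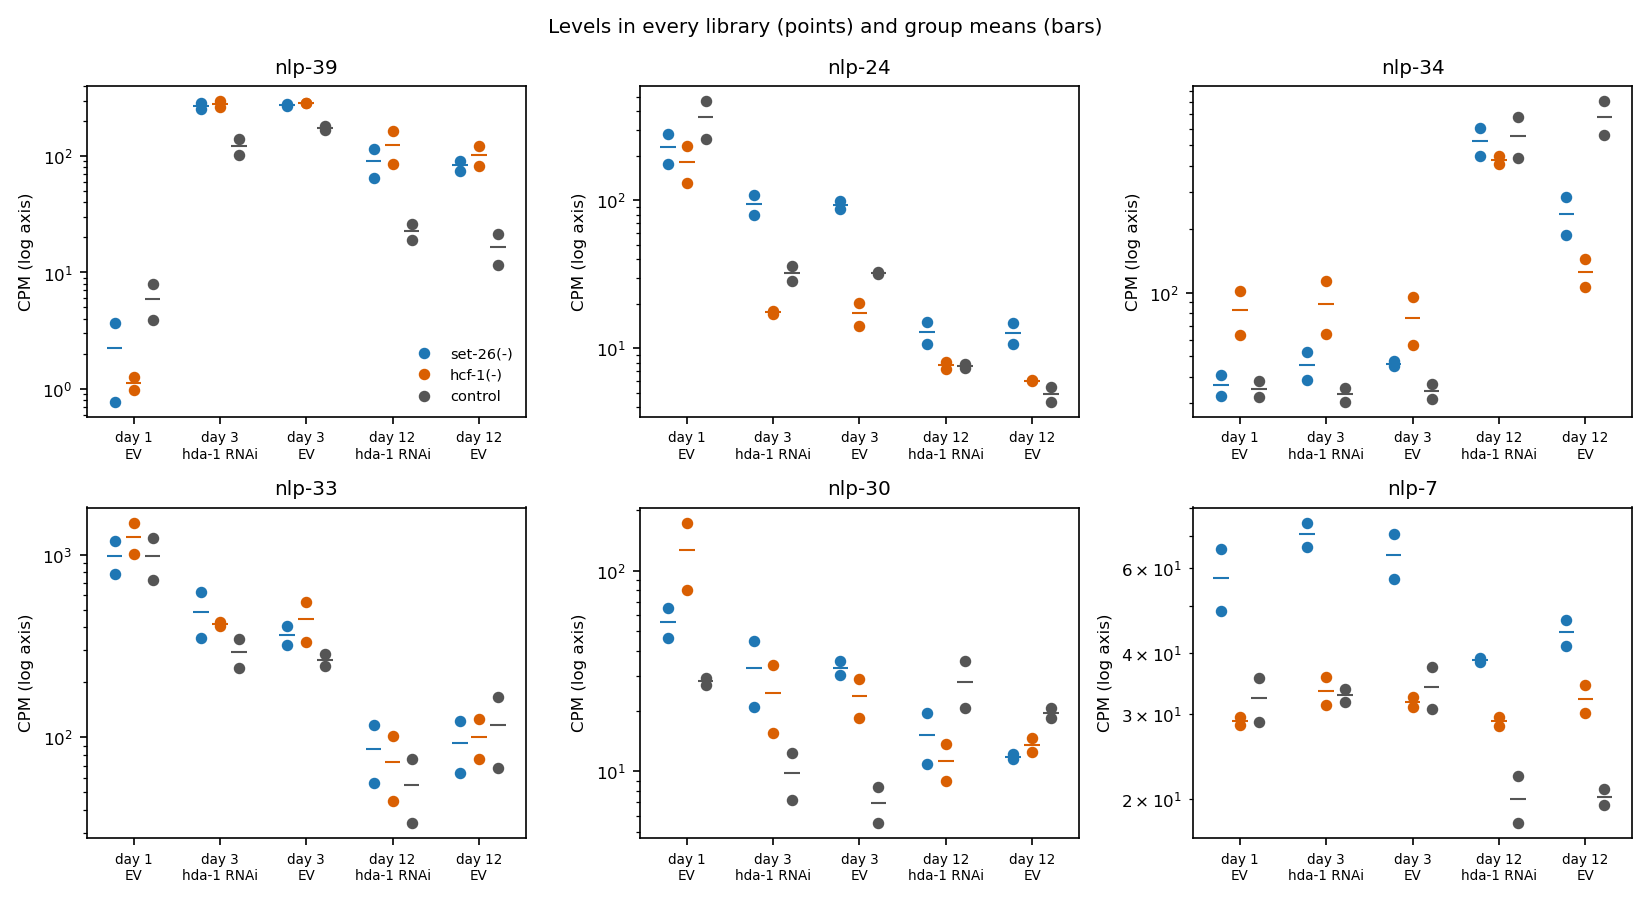
Levels of nlp-39, nlp-24, nlp-34, nlp-33, nlp-30 and nlp-7 in each library. The x axis gives day and diet, the logarithmic y axis CPM (TMM-scaled). Points are libraries and bars are group means, with set-26(-) in blue, hcf-1(-) in orange and control in grey. nlp-39 is under 8 CPM in the day 1 libraries and between 102.1 and 297.8 CPM in those of day 3. nlp-34 reaches 810.5 CPM in a control library at day 12.

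The 11 antimicrobial genes nlp-24 to nlp-34 moved in different directions with age. Their summed level was 4662 to 4917 CPM in set-26(-), 3431 to 4282 CPM in hcf-1(-) and 5806 to 6935 CPM in control worms at day 12 on EV, against 4208 to 4401, 4231 to 5673 and 5175 to 6971 CPM at day 1. From day 1 to day 12, 2 of the 11 tested were called higher and 4 lower in set-26(-), 0 higher and 5 lower in hcf-1(-), and 2 higher and 3 lower of 10 tested in control worms. Of all genes tested, 42%, 39.7% and 26.8% were called in those comparisons. Markers of the epidermis (6 genes) summed to 19.87 to 25.26, 20.91 to 25.39 and 23.9 to 35.8 CPM at day 12, against 111.6 to 130.3, 125.1 to 179.4 and 73.39 to 104.3 CPM at day 1, in the set-26(-), hcf-1(-) and control libraries. The part of that difference in the results for these genes was not tested. Single epidermal markers did not move together, so their sum is not a measure of epidermal content. From day 1 to day 3 in control worms, grd-10 changed by -4.84 on the log2 scale and elt-3 by 0.15. In hcf-1(-) at day 1, rol-6 differed from control by 6.59 and elt-3 by -0.30.

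nlp-24, whose peptides have also been described as opioid-like and active in starved worms, fell in each genotype. It had 14.9 and 10.6 CPM in set-26(-), 6.04 and 6.11 CPM in hcf-1(-) and 4.36 and 5.47 CPM in control worms at day 12 on EV, against 176 and 279, 231 and 131, and 468 and 259 CPM at day 1. The log2 change between those days was -4.17 ± 0.31 (edgeR adjusted p = 2.82e-06), -4.91 ± 0.30 (edgeR adjusted p = 2.6e-07) and -6.24 ± 0.45 (edgeR adjusted p = 0.00122) in the genotypes in that order. No day 12 library reached the lowest day 1 library.

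nlp-33 fell with age as well, to 123 and 64.01 CPM in set-26(-), 126 and 75.9 CPM in hcf-1(-) and 167 and 67.6 CPM in control worms at day 12, against 1183 and 787, 1499 and 1002, and 1231 and 726 CPM at day 1. Its log2 changes were -3.43 ± 0.37 (edgeR adjusted p = 3.29e-05), -3.64 ± 0.29 (edgeR adjusted p = 2.14e-06) and -3.10 ± 0.53 (edgeR adjusted p = 0.00994).

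nlp-30 was called lower at day 12 than at day 1 in both mutants. It stood at 12.2 and 11.5 CPM in set-26(-) and 14.6 and 12.6 CPM in hcf-1(-) worms at day 12, against 65.5 and 46.1 CPM and 174 and 80.6 CPM at day 1. In control worms it was 18.6 and 20.6 CPM at day 12, against 29.2 and 27 CPM at day 1, and was not called (log2 change -0.56 ± 0.26, edgeR adjusted p = 0.163).

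nlp-34 went the other way. It had 285 and 189 CPM in set-26(-), 144 and 107 CPM in hcf-1(-) and 559 and 811 CPM in control worms at day 12 on EV, against 40.7 and 32.3, 102 and 63.3, and 31.9 and 38.2 CPM at day 1. The rise was called in set-26(-) (log2 change 2.68 ± 0.28, edgeR adjusted p = 2.63e-05) and in control worms (4.25 ± 0.37, edgeR adjusted p = 0.00155) but not in hcf-1(-) worms (0.60 ± 0.25, edgeR adjusted p = 0.0755). At day 12 on EV nlp-34 levels were lowest in hcf-1(-), higher in set-26(-) and highest in control worms, with no overlap between neighbours. The step between the mutants was not called when tested directly.

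Between the mutants and the control, the same 11 genes gave different directions on different days. At day 3 on EV, 4 of 10 tested were called higher and 0 lower in set-26(-), and 5 higher and 2 lower in hcf-1(-), beside 14.2% and 14.1% of all genes called either way. nlp-30 was higher in both mutants: 35.4 and 30.1 CPM in set-26(-) and 29.03 and 18.5 CPM in hcf-1(-), against 8.37 and 5.51 CPM in control worms. nlp-24 was called in opposite directions at day 3, at 99.4 and 87.0 CPM in set-26(-) (log2 difference 1.54 ± 0.20, edgeR adjusted p = 3.24e-05) and 20.3 and 14.3 CPM in hcf-1(-) (-0.91 ± 0.21, edgeR adjusted p = 0.00672), against 31.9 and 32.8 CPM in control worms.

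nlp-26 had 53.7 and 49.6 CPM in set-26(-) and 17.9 and 32.3 CPM in hcf-1(-), against 14.5 and 10.9 CPM in control worms at day 3. At day 12 on EV 1 of the 11 was called higher and 1 lower in set-26(-), and 0 higher and 2 lower in hcf-1(-) worms, beside 4.67% and 5.81% of all genes. The 2 lower in hcf-1(-) were nlp-34 (log2 difference -2.46 ± 0.30, edgeR adjusted p = 0.00378) and nlp-31 (-1.11 ± 0.23, edgeR adjusted p = 0.0249). The nlp-34 call held in 5 of 6 fits that left out a library, with a highest edgeR adjusted p of 0.0552.

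**Figure D3:**
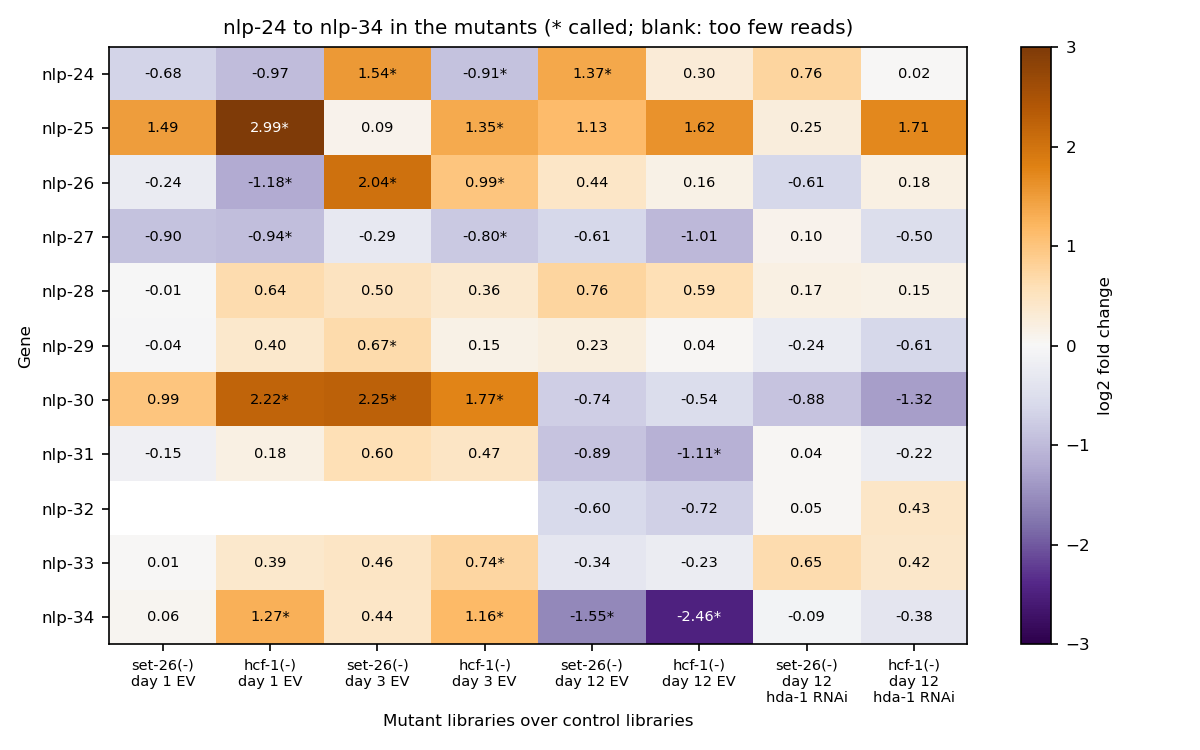
Log2 differences of nlp-24 to nlp-34 between mutant and control. Rows are genes and columns are the 8 comparisons of set-26(-) or hcf-1(-) with the control by day and diet. Colour and number give the log2 difference, an asterisk marks an edgeR adjusted p under 0.05 and a blank a gene not tested. nlp-30 is marked at day 3 in both mutants, and nlp-24 carries opposite signs in them at that day.

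At day 1, few peptide genes differed between mutants and control. In set-26(-), 0 of 93 genes tested were called higher and 1 lower, against 8.64% of all genes called either way (4.45% higher and 4.19% lower). That gene was nlp-20, with 27.8 and 31.99 CPM in set-26(-), against 63.3 and 57.4 CPM in control worms (log2 difference -1.01 ± 0.23, edgeR adjusted p = 0.0359). The call was lost without any one of 5 of the 6 libraries, and with no TMM scaling, and 4 genes were called without control replicate 2. In hcf-1(-), 3 of 93 were called higher and 5 lower, against 13.6% of all genes (7.76% higher and 5.84% lower). The higher ones were nlp-25, nlp-30 and nlp-34, and the lower ones nlp-26, nlp-20, flp-8, nlp-27 and nlp-57, so 3 genes of the antimicrobial group were called higher and 2 lower.

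nlp-25 had 59.3 and 56.1 CPM in hcf-1(-), against 2.52 and 12.4 CPM in control worms at day 1 (log2 difference 2.99 ± 0.59, edgeR adjusted p = 0.0162). nlp-20 had 24.6 and 32.4 CPM in hcf-1(-), against 63.3 and 57.4 CPM in control worms (-1.04 ± 0.23, edgeR adjusted p = 0.0248). flp-8 had 17.2 and 18.99 CPM in hcf-1(-), against 33.3 and 40.7 CPM in control worms (-0.99 ± 0.23, edgeR adjusted p = 0.0288). When library totals replaced TMM, which moved the median of all genes by 0.47, 5 genes were called higher and 0 lower. The 8 calls became 0 without hcf-1(-) replicate 1, 2 without hcf-1(-) replicate 2 and 3 without control replicate 1. Compared directly, hcf-1(-) and set-26(-) worms differed in 0 of 93 genes by edgeR, against 1.03% of all genes (0.59% higher and 0.445% lower), with 13 at an unadjusted p under 0.05 and 1 called by DESeq2.

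At day 3 on EV, peptide genes were called in both directions. In set-26(-), 8 of 95 were called higher and 3 lower, against 14.2% of all genes (8.17% higher and 6.04% lower). In hcf-1(-), 8 of 95 were called higher and 10 lower, against 14.1% of all genes (6.81% higher and 7.29% lower), and 6 of the 10 were flp genes. With library totals in place of TMM, the split became 16 higher and 0 lower in set-26(-), where the median of all genes moved by 0.22, and 13 higher and 1 lower in hcf-1(-), where it moved by 0.39. The gene still lower was nlp-20, with 46.9 and 49.0 CPM in hcf-1(-) and 57.2 and 61.9 CPM in set-26(-), against 91.8 and 97.8 CPM in control worms on the TMM scale.

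nlp-78 was higher in both mutants at day 3, with 25.2 and 21.2 CPM in set-26(-) and 20.4 and 17.74 CPM in hcf-1(-), against 8.53 and 8.82 CPM in control worms. The log2 difference was 1.43 ± 0.24 (edgeR adjusted p = 0.00047) in set-26(-) and 1.14 ± 0.24 (edgeR adjusted p = 0.00377) in hcf-1(-). nlp-7, whose peptides lower egg laying, was called in set-26(-) alone, at 70.7 and 57.0 CPM, against 37.4 and 30.7 CPM in control worms (0.92 ± 0.19, edgeR adjusted p = 0.00304). It had 32.5 and 31.02 CPM in hcf-1(-) worms, where it overlapped the control. The difference between the mutants was not tested at day 3.

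Among the flp genes of hcf-1(-) worms at day 3, flp-8 had 13.3 and 16.5 CPM, against 29.4 and 32.9 CPM in control worms (log2 difference -1.05 ± 0.23, edgeR adjusted p = 0.00478). flp-10, an inhibitor of egg laying through the receptor EGL-6, was lower in both mutants (-0.80 ± 0.17, edgeR adjusted p = 0.00338 in hcf-1(-), and -0.52 ± 0.17, edgeR adjusted p = 0.0478 in set-26(-)). flp-33, flp-16, flp-1 and flp-6 were the other flp genes lower in hcf-1(-). None of these flp calls held with library totals. The count of 11 in set-26(-) fell to 7 and 5 without control replicates 1 and 2, to 4 and 6 without set-26(-) replicates 1 and 2, and was 17 without either hcf-1(-) replicate, and the count of 18 in hcf-1(-) fell to 8 and 11 without control replicates 1 and 2.

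At day 12 on EV, 4 of 96 genes were called higher and 3 lower in set-26(-), against 4.67% of all genes (3.23% higher and 1.45% lower), and 1 higher and 9 lower in hcf-1(-), against 5.81% of all genes (3.3% higher and 2.51% lower). The median log2 difference of the 96 genes was -0.238 in set-26(-), beside -0.002 over all genes tested, and -0.317 in hcf-1(-), beside 0.003. With library totals, 4 were higher and 1 lower in set-26(-), and 1 higher and 6 lower in hcf-1(-). With DESeq2 size factors in edgeR, 4 were higher and 5 lower in set-26(-). nlp-39 was among the higher ones in both.

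In set-26(-) at day 12, flp-34, whose neuropeptide Y-like peptide acts in aversive olfactory learning, had 23.0 and 27.3 CPM, against 12.2 and 10.9 CPM in control worms (log2 difference 1.11 ± 0.22, edgeR adjusted p = 0.0236). nlp-7 had 46.9 and 41.4 CPM, against 20.9 and 19.4 CPM in control worms (1.12 ± 0.21, edgeR adjusted p = 0.0173), so the day 3 difference was present here too. flp-5 (58.8 and 53.4 CPM, against 99.3 and 107 CPM in control worms) and nlp-17 (21.3 and 23.8 CPM, against 41.5 and 38.3 CPM) were lower.

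In hcf-1(-) at day 12, flp-8 had 7.94 and 9.60 CPM, against 24.9 and 19.7 CPM in control worms (log2 difference -1.37 ± 0.24, edgeR adjusted p = 0.0151). nlp-51 had 29.3 and 26.9 CPM, against 74.2 and 47.8 CPM in control worms (-1.13 ± 0.24, edgeR adjusted p = 0.0284). nlp-59 (8.10 and 6.89 CPM, against 32.8 and 15.6 CPM in control worms) and nlp-20 (35.5 and 32.6 CPM, against 71.9 and 69.8 CPM) were lower with edgeR adjusted p of 0.0226 and 0.021. In set-26(-) both also lay below control but just missed the threshold. There the log2 difference was -1.36 for nlp-59 (edgeR adjusted p = 0.0506) and -0.78 for nlp-20 (edgeR adjusted p = 0.0635). nlp-8 and nlp-9 were the remaining lower calls in hcf-1(-) beside flp-5. The 7 calls in set-26(-) became 1 without either set-26(-) replicate, 3 and 4 without hcf-1(-) replicates 1 and 2, and 11 without control replicate 1. The 10 calls in hcf-1(-) became 2 and 1 without hcf-1(-) replicates 1 and 2, and 21 without control replicate 1. Compared directly, hcf-1(-) and set-26(-) differed in 0 of 96 genes by edgeR, against 0.838% of all genes (0.162% higher and 0.676% lower), with 8 at an unadjusted p under 0.05 and 0 by DESeq2.

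On hda-1 RNAi at day 12, 2 of 96 genes were higher and 3 lower in set-26(-), against 3.25% of all genes (2.1% higher and 1.15% lower), and 1 higher and 4 lower in hcf-1(-), against 4.31% of all genes (2.45% higher and 1.86% lower). With library totals the splits were 3 and 1, and 1 and 3. Blocking on replicate gave other counts: 5 were higher and 20 lower in set-26(-), and 3 higher and 21 lower in hcf-1(-). Same-numbered libraries of this fit deviated together, with correlations of 0.235 to 0.345 between genotypes. nlp-59 was lower in both mutants, with 4.84 and 8.42 CPM in set-26(-) and 10.1 and 11.1 CPM in hcf-1(-), against 29.3 and 25.0 CPM in control worms. The log2 difference was -2.04 ± 0.30 (edgeR adjusted p = 0.00671) in set-26(-) and -1.34 ± 0.29 (edgeR adjusted p = 0.0304) in hcf-1(-). flp-34 was again higher in set-26(-), with 36.0 and 51.8 CPM, against 16.04 and 15.6 CPM in control worms (1.47 ± 0.25, edgeR adjusted p = 0.0135). nlp-62 and nlp-17 were lower in set-26(-), and nlp-43, flp-8 and nlp-48 in hcf-1(-). Leaving out 1 library gave 1 to 3 calls in set-26(-), fewest without control replicate 2, and in hcf-1(-) 0 without control replicate 2, 1 without either hcf-1(-) replicate, and 15 and 13 without set-26(-) replicates 1 and 2.

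Between days, both peptide genes and the whole table had more calls at day 12 than at day 3. From day 1 to day 3 on EV, 13 of 94 genes were higher and 5 lower in set-26(-), against 29.7% of all genes (16.6% higher and 13.2% lower), 6 of 94 higher and 5 lower in hcf-1(-), against 27.2% (14.4% higher and 12.9% lower), and 2 of 95 higher and 4 lower in control worms, against 9.99% (4.32% higher and 5.67% lower). With the populations as a block, 11 were higher and 7 lower in hcf-1(-). nlp-39 and nlp-51 were called higher in each of the 3 genotypes, which share no library, and nlp-24, nlp-30 and nlp-33 lower. nlp-51 had 49.6 and 42.6 CPM in set-26(-), 45.1 and 53.1 CPM in hcf-1(-) and 81.8 and 59.8 CPM in control worms at day 3, against 20.4 and 11.6, 15.4 and 12.7, and 13.6 and 12.9 CPM at day 1.

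nlp-39 had the largest early change called in each genotype, with log2 changes of 7.01 ± 0.44 in set-26(-), 7.99 ± 0.26 in hcf-1(-) and 4.88 ± 0.36 in control worms, with edgeR adjusted p of 1.6e-06, 8.19e-06 and 0.00299. nlp-20, nlp-21 and nlp-56 were called higher in 2 genotypes, and nlp-25 lower in 2. The control count of 6 became 1 without either day 3 replicate and 15 and 18 without day 1 replicates 1 and 2, and the set-26(-) count of 18 became 7 without either day 3 replicate and 29 without day 1 replicate 2.

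From day 1 to day 12 on EV, 15 of 95 genes were higher and 11 lower in set-26(-), against 42% of all genes (20.9% higher and 21.1% lower), 19 of 95 higher and 10 lower in hcf-1(-), against 39.7% (19.2% higher and 20.5% lower), and 14 of 94 higher and 5 lower in control worms, against 26.8% (11.8% higher and 15% lower). This split depends on scaling. With library totals, 48 were higher and 4 lower in set-26(-), 45 higher and 3 lower in hcf-1(-) and 53 higher and 3 lower in control worms, where the median of all genes moved by 0.66, 0.42 and 0.83. The 12 neuron markers summed to 828.3 to 929.6 CPM in set-26(-), 840.6 to 878.2 CPM in hcf-1(-) and 870.4 to 956.3 CPM in control worms at day 12, against 613.6 to 685.5, 575.3 to 622.3 and 540.1 to 621 CPM at day 1. Body wall muscle markers (6 genes) summed to 888.9 to 940.4, 1211 to 1308 and 693.8 to 849.9 CPM at day 12, against 6673 to 6913, 5453 to 6737 and 6281 to 9809 CPM at day 1. The part of these shifts in the age results was not tested. Single neuronal genes did not move together, so the neuron sum is not a measure of neuron content. From day 1 to day 3 in control worms, ric-19 changed by 1.03 on the log2 scale and unc-119 by -0.75.

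The genes called higher at day 12 in each genotype were flp-10, nlp-16, nlp-45, nlp-48, nlp-51 and nlp-61, and those called lower nlp-24, nlp-26 and nlp-33. A further 11 were called higher and 5 lower in 2 genotypes. nlp-48 had 12.4 and 16.6 CPM in set-26(-), 17.95 and 18.2 CPM in hcf-1(-) and 24.3 and 49.1 CPM in control worms at day 12, against 3.31 and 3.86, 4.88 and 4.36, and 4.45 and 3.04 CPM at day 1. nlp-45 had 12.7 and 10.7, 10.4 and 9.60, and 12.3 and 13.0 CPM at day 12 in those genotypes, against 2.94 and 3.25, 2.65 and 2.54, and 2.90 and 2.28 CPM at day 1. For both genes no day 12 library came down to a day 1 library.

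flp-10 rose to 148 and 155 CPM in set-26(-), 190 and 160 CPM in hcf-1(-) and 261 and 217 CPM in control worms at day 12, against 105 and 78.4, 85.1 and 74.4, and 77.6 and 78.7 CPM at day 1. flp-34 was called higher in the 2 mutants, with a log2 change of 2.34 ± 0.29 (edgeR adjusted p = 9.28e-05) in set-26(-), and had 1.07 ± 0.34 (edgeR adjusted p = 0.0614) in control worms. nlp-2, which encodes RPamide peptides, rose in control worms (2.14 ± 0.37, edgeR adjusted p = 0.00992). nlp-46, at under 5 CPM in each of the 30 libraries, was called higher in the 2 mutants.

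Among the lower genes, nlp-26 had 9.85 and 21.02 CPM in set-26(-), 12.1 and 13.3 CPM in hcf-1(-) and 11.3 and 11.2 CPM in control worms at day 12, against 45.6 and 50.2, 17.2 and 31.5, and 66.0 and 47.5 CPM at day 1. flp-8 (log2 change -1.06 ± 0.25, edgeR adjusted p = 0.00475 in hcf-1(-)), flp-26, nlp-12, nlp-30 and nlp-36 were called lower in 2 genotypes. nlp-12 encodes the cholecystokinin-like peptide of the DVA neuron that modulates locomotion. nlp-57, called lower in control worms, had an edgeR adjusted p of 0.046 and of 0.0841 with the populations as a block. The count of 26 in set-26(-) fell to 17 and 16 without day 12 replicates 1 and 2, and the count of 19 in control worms to 12 without day 1 replicate 1 and 10 without day 12 replicate 2.

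**Figure D4:**
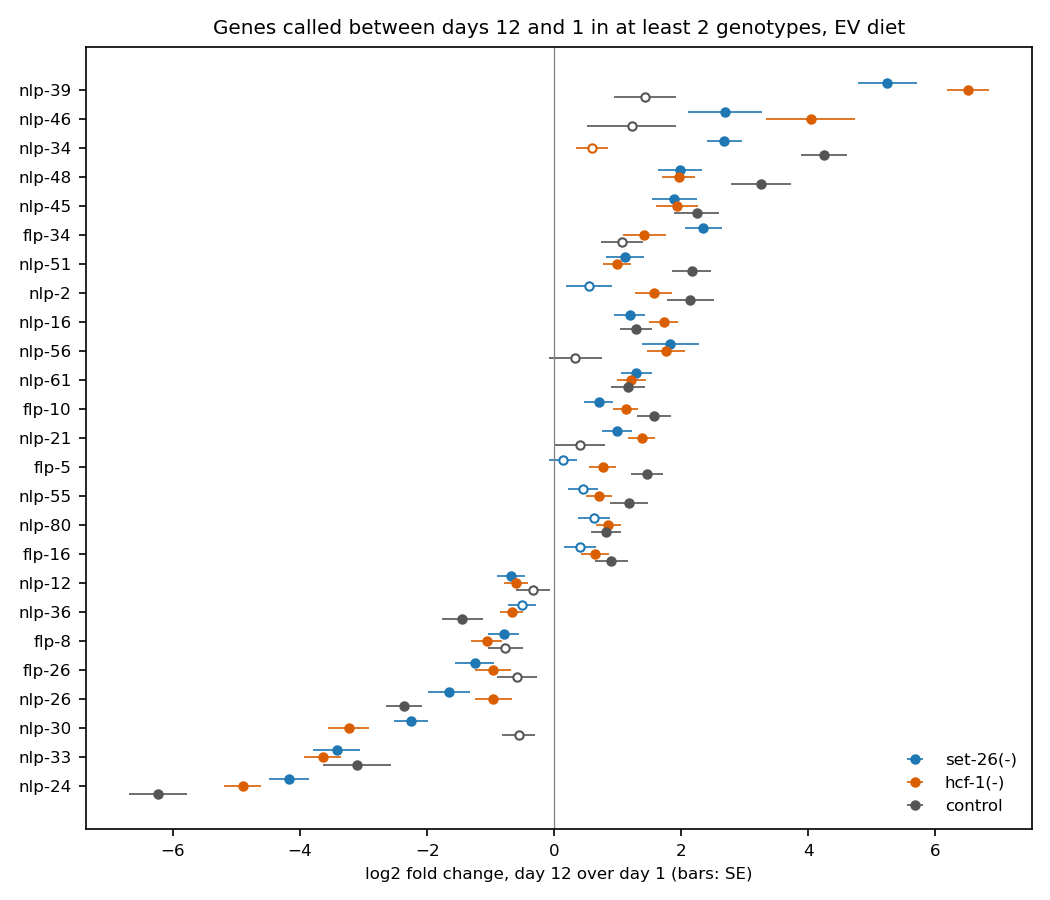
Change between day 1 and day 12 on EV for the 25 genes called in at least 2 genotypes. The x axis is the log2 change (day 12 over day 1, TMM-scaled) and rows are genes. Points are set-26(-), hcf-1(-) and control, filled where the edgeR adjusted p was under 0.05, with bars of 1 SE. nlp-24 and nlp-33 lie to the left of 0 in the 3 genotypes, and nlp-39 lies farthest right in the mutants.

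Whether age acted differently in a mutant was tested as the change between day 1 and day 12 in the mutant minus that in the control. In set-26(-), 1 of 96 genes was called above the control change (nlp-39) and 1 below (flp-5), against 3.43% of all genes (2.07% higher and 1.36% lower). In hcf-1(-), 1 of 96 was above (nlp-39) and 2 below (nlp-34 and nlp-30), against 5.05% (2.54% higher and 2.51% lower). The difference for nlp-39 was 3.77 ± 0.74 on the log2 scale in set-26(-) (edgeR adjusted p = 0.0178) and 5.01 ± 0.77 in hcf-1(-) (edgeR adjusted p = 0.0044). For nlp-34 in hcf-1(-) it was -3.71 ± 0.45 (edgeR adjusted p = 0.00126) and for nlp-30 -2.73 ± 0.46 (edgeR adjusted p = 0.00736). The nlp-39 values draw on day 1 levels near the lower end of detection. Its day 1 log2 differences from control were not called. They were -1.42 in set-26(-) (edgeR adjusted p = 0.259) and -2.36 in hcf-1(-) (edgeR adjusted p = 0.0747). The 3 calls in hcf-1(-) held without any one of the 12 libraries. In set-26(-) the count was 0 without control day 12 replicate 2 or set-26(-) day 12 replicate 1, and 5 without set-26(-) day 1 replicate 2 or control day 12 replicate 1.

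No peptide gene was called between hda-1 RNAi and EV at day 3. On average over the genotypes, 0 of 98 genes were called by edgeR, against 0.296% of all genes (0.213% higher and 0.0836% lower), with 5 at an unadjusted p under 0.05 and 0 by DESeq2. At day 12, 14 of 96 genes were called higher and 3 lower on average over the genotypes, against 16.1% of all genes (10.4% higher and 5.71% lower). The count was 11 without set-26(-) EV replicate 2.

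The largest average rises were those of nlp-78, nlp-67, nlp-34, nlp-43, flp-33 and nlp-48. nlp-78 had 31.1 and 38.8 CPM in set-26(-), 35 and 32.1 CPM in hcf-1(-) and 13.6 and 25.4 CPM in control worms on hda-1 RNAi, against 21.2 and 14.8, 18.1 and 15.6, and 5.95 and 11.9 CPM on EV (log2 difference 1.05 ± 0.20, edgeR adjusted p = 0.00396). In each genotype its hda-1 RNAi libraries lay above its EV libraries. nlp-67 had 14.8 and 16.6, 11.2 and 14.4, and 22.3 and 37.9 CPM on hda-1 RNAi in the same genotypes, against 6.62 and 6.92, 5.51 and 7.59, and 10.3 and 25.6 CPM on EV (1.00 ± 0.22, edgeR adjusted p = 0.00967). nlp-43 had 21.3 and 18.98, 13.1 and 15.8, and 34.4 and 60.9 CPM, against 12.2 and 15.9, 8.89 and 10.8, and 16.8 and 19.8 CPM on EV (0.84 ± 0.16, edgeR adjusted p = 0.00417). nlp-1, a peptide of the AWC olfactory neurons, rose by 0.58 ± 0.12 (edgeR adjusted p = 0.00634).

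The 3 genes called lower on hda-1 RNAi at day 12 were nlp-25, nlp-28 and nlp-36. nlp-25 had 1.75 and 8.79 CPM in set-26(-), 15.8 and 13.1 CPM in hcf-1(-) and 5.38 and 3.45 CPM in control worms, against 12.6 and 36.2, 36.7 and 31.5, and 14.2 and 7.65 CPM on EV (log2 difference -1.56 ± 0.34, edgeR adjusted p = 0.00857). nlp-28 had 472 and 573, 539 and 484, and 508 and 422 CPM on hda-1 RNAi, against 877 and 1114, 841 and 933, and 791 and 380 CPM on EV (-0.67 ± 0.17, edgeR adjusted p = 0.0169). Its control libraries on both diets overlapped. nlp-36 had an average log2 difference of -0.45 ± 0.11 (edgeR adjusted p = 0.0151).

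Within a genotype at day 12, 2 of 96 genes were higher and 2 lower in hcf-1(-) (nlp-34, nlp-78, nlp-25 and nlp-28), against 5.38% of all genes (4.12% higher and 1.26% lower), and with the populations as a block 12 were higher and 7 lower. In set-26(-), 0 of 94 were called by edgeR, against 1.21% of all genes (0.918% higher and 0.294% lower), with 14 at an unadjusted p under 0.05 and 5 by DESeq2, and with the block 9 were higher and 5 lower. In control worms 0 of 96 were called, against 0.988% (0.911% higher and 0.0772% lower), with 7 at an unadjusted p under 0.05 and 1 by DESeq2, and with the block 8 were higher and 3 lower. The 4 calls in hcf-1(-) became 7 without hda-1 RNAi replicate 1 and 2 without hda-1 RNAi replicate 2, and the 0 in set-26(-) became 3 without hda-1 RNAi replicate 1 and 1 without EV replicate 1.

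nlp-34 had 601 and 445 CPM in set-26(-), 443 and 408 CPM in hcf-1(-) and 434 and 677 CPM in control worms on hda-1 RNAi, against 285 and 189, 144 and 107, and 559 and 811 CPM on EV. The log2 difference was 1.80 ± 0.20 in hcf-1(-) (edgeR adjusted p = 0.00249), 1.18 ± 0.28 in set-26(-) (edgeR adjusted p = 0.0952) and -0.29 ± 0.31 in control worms (edgeR adjusted p = 0.809), where the diets overlapped. The test of whether the diet effect differed from that in control worms gave 2.08 ± 0.42 for hcf-1(-) (edgeR adjusted p = 0.258). For set-26(-) it gave 1.45 ± 0.42 (edgeR adjusted p = 0.671), so edgeR without a block called no difference for nlp-34. Its unadjusted edgeR p was 0.000313 in hcf-1(-) and 0.00437 in set-26(-), the lowest of the peptide genes in each test. Over the 96 genes that test called 0 in either mutant by edgeR, against 0% of all genes, with 3 (set-26(-)) and 4 (hcf-1(-)) at an unadjusted p under 0.05 and 0 and 1 by DESeq2, and 2 and 1 with the block.

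**Figure D5:**
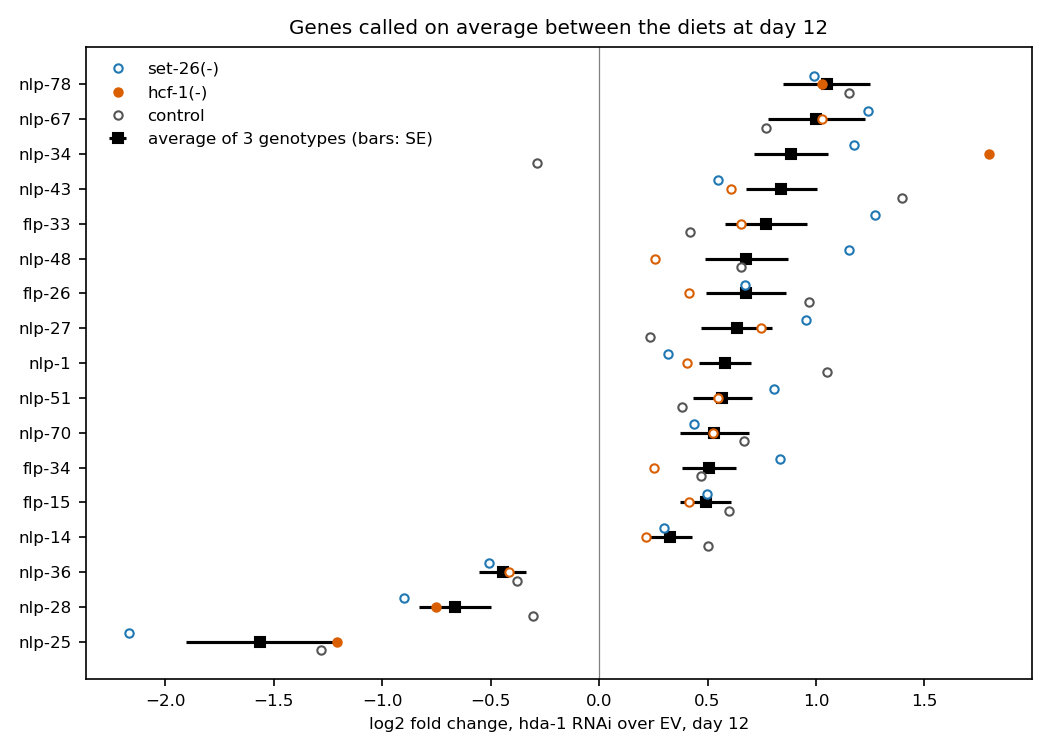
Effect of hda-1 RNAi at day 12 on the 17 genes called on average over the genotypes. The x axis is the log2 difference (hda-1 RNAi over EV) and rows are genes. Squares are the average with bars of 1 SE, circles are set-26(-), hcf-1(-) and control, filled where the edgeR adjusted p was under 0.05. nlp-25, nlp-28 and nlp-36 lie below 0 on average, the other 14 above, and nlp-34 spans -0.29 in control to 1.80 in hcf-1(-).

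Peptide genes tied to given behaviours were taken from lists of 2 to 5 genes. Of the 5 sleep peptide genes, flp-11 of the RIS neuron, flp-13, flp-24 and nlp-8 of the ALA neuron could be tested and nlp-22 could not. The one call among them over the 25 comparisons was nlp-8 in hcf-1(-) at day 12 on EV, with 20.1 and 19.5 CPM, against 33.2 and 47.1 CPM in control worms (log2 difference -1.04 ± 0.23, edgeR adjusted p = 0.0346). flp-11 had 32.9 and 29.5 CPM in set-26(-) and 42.5 and 29.8 CPM in hcf-1(-), against 44.3 and 49.7 CPM in control worms there, and was not called. Of the egg-laying genes nlp-3, nlp-7, flp-10 and flp-17, nlp-7 was called higher in set-26(-) at days 3 and 12 on EV, and flp-10 lower in both mutants at day 3 and higher at day 12 than at day 1 in the 3 genotypes. Of the locomotion and arousal genes flp-1, flp-2, flp-18, flp-21 and nlp-12, flp-1 was called lower in hcf-1(-) at day 3, and nlp-12 lower at day 12 than at day 1 in both mutants. Of the gut and fat genes, nlp-40 and flp-7 were called higher at day 3 than at day 1 in set-26(-). The day 3 calls on flp-10 and flp-1 against control did not hold with library totals. Over the 25 comparisons, 0 to 42% of all genes were called. The share was 5.81% for hcf-1(-) at day 12 on EV, and 14.2% and 14.1% for set-26(-) and hcf-1(-) at day 3. From day 1 to day 3 in set-26(-) it was 29.7%.

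The machinery that makes the peptides was measured beside them. egl-3, the prohormone convertase, and egl-21, the carboxypeptidase that follows it, had 168 to 330.3 and 263.7 to 392.8 CPM over the 30 libraries and were not called in the 25 comparisons. sbt-1, the chaperone of EGL-3, stood out at day 1. It had 46.7 and 68.2 CPM in set-26(-), 44.5 and 57.8 CPM in hcf-1(-), against 483 and 84.2 CPM in control worms, so 1 control library was far above the other 5. With that library included, sbt-1 was called lower in hcf-1(-) at day 1 (log2 difference -2.44 ± 0.68, edgeR adjusted p = 0.0499), beside 13.6% of all genes. At day 12 on EV it had 604 and 589, 567 and 525, and 736 and 741 CPM. Its log2 change between day 1 and day 12 was 3.35 in set-26(-) (edgeR adjusted p = 5.24e-06) and 3.40 in hcf-1(-) (edgeR adjusted p = 4.08e-07). In control worms its day 12 libraries also lay above those of day 1. rab-3, a synaptic vesicle gene among the neuron markers, had the same order at day 1, with 1.84 and 3.09 CPM in set-26(-), 0.977 and 3.27 CPM in hcf-1(-), against 32.9 and 4.18 CPM in control worms. pamn-1, which amidates peptides, was lower at day 3 on EV in set-26(-) (log2 difference -0.94 ± 0.22, edgeR adjusted p = 0.00651) and in hcf-1(-) worms (-1.02 ± 0.22, edgeR adjusted p = 0.00368). Of all genes, 14.2% and 14.1% were called either way in those comparisons. Other scalings and left-out libraries were checked for flp and nlp genes only, so not for the calls on these machinery genes.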

How the data were processed

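QuantSeq 3′ mRNA libraries were made by the authors from RNA of whole worms and sequenced as single-end reads. Reads were trimmed with Trim Galore 0.6.5 and mapped with STAR 2.7.9a to WBcel235/ce11, keeping reads with 1 mapping place, and the deposited values are raw counts per gene by STAR. The annotation release is not given in the sources used here.

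Gene symbols and positions came from the Ensembl annotation of WBcel235. Differences were tested with edgeR 4.0.16 (R 4.3.3, quasi-likelihood F test, TMM) on genes with more than 10 reads in at least 2 libraries of the fit, with Benjamini-Hochberg adjustment over the genes tested and a threshold of 0.05. Fits held the genotypes of 1 day and diet, or 1 genotype, or all cells of an interaction. SEs were derived from the log2 fold change and F. The alternatives were DESeq2 1.42.0, DESeq2 size factors, no filter, a replicate block, each library left out and, added after seeing the data, library totals in place of TMM. The test was run on simulated counts, drawn independently between libraries and changed only in well-read genes. Shared populations and low counts were thus not checked.

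EV and hda-1 RNAi libraries of 1 number, and the days of a genotype, come from 1 population, per the study's methods. Deviations of same-numbered libraries from group means correlated at 0.119 to 0.427 between the diets and 0.003 to 0.331 between the days. At day 3, over both diets, same-numbered libraries of different genotypes correlated at -0.093 to 0.319. Libraries of 1 population did not stand apart there. Genotypes share a number only. The same correlation between genotypes of 1 day was 0.01 to 0.253 at day 1, -0.027 to 0.166 at day 3 and 0.064 to 0.324 at day 12 on EV, and 0.235 to 0.345 at day 12 on hda-1 RNAi, where it was over 0.1 for each pair of genotypes.

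Members and gene lists were chosen with earlier results of these data known. Named were the 12 members with the highest mean CPM, in each comparison up to 6 called higher and 6 lower by fold change, members of the function lists, and genes of processing and release. 44113 gene IDs had a symbol.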

Additional observations from a re-analysis of the deposited data

Results flagged for a closer look

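The change between day 1 and day 12 on EV differed between a mutant and the control, by a test of the difference itself, for 5 combinations of gene and genotype. For nlp-39 the change exceeded that of control worms by 3.77 ± 0.74 (log2, SE) in set-26(-) (edgeR adjusted p = 0.0178) and by 5.01 ± 0.77 in hcf-1(-) (edgeR adjusted p = 0.0044). Both values draw on day 1 levels near the lower end of detection. The set-26(-) call was lost without control day 12 replicate 2 (edgeR adjusted p = 0.0532) or set-26(-) day 12 replicate 1 (edgeR adjusted p = 0.0625). For nlp-34 in hcf-1(-) the difference was -3.71 ± 0.45 (edgeR adjusted p = 0.00126) and for nlp-30 in hcf-1(-) it was -2.73 ± 0.46 (edgeR adjusted p = 0.00736). For flp-5 in set-26(-) it was -1.34 ± 0.29 (edgeR adjusted p = 0.0267, and 0.0549 with the populations as a block), with 58.8 and 53.4 CPM in set-26(-), against 99.3 and 107 CPM in control worms at day 12, and 46.9 and 53.2 CPM in set-26(-), against 34.3 and 38.8 CPM in control worms at day 1.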

How the results depend on the processing

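Of 200 calls on single genes, 75 held under every alternative run, 140 held under all of them apart from left-out libraries, and 0 changed direction. DESeq2 lost 13, DESeq2 size factors in edgeR 4, no filter 11, the replicate block 9 and library totals, an alternative chosen after seeing the data, 43. Counts of called genes that moved by over 1.5 times were as follows, and the cause was not tested. With DESeq2, they were 2 (set-26(-) against control, day 1), 13 (set-26(-), day 12 EV), 10 (set-26(-)) and 15 (hcf-1(-)) at day 12 on hda-1 RNAi, 1 (hcf-1(-) against set-26(-), day 1), 5 (hda-1 RNAi in set-26(-)) and 1 (in control), 7 and 5 (age by genotype, set-26(-) and hcf-1(-)) and 1 (diet by genotype, hcf-1(-)). With no filter, they were 6 (set-26(-), day 1), 15 and 18 (set-26(-) and hcf-1(-), day 12 EV), 14 and 16 (the same on hda-1 RNAi), 5 and 2 (hcf-1(-) against set-26(-), days 1 and 12), 8, 7 and 5 (hda-1 RNAi in set-26(-), hcf-1(-) and control), 6 and 8 (age by genotype) and 1 and 1 (diet by genotype). DESeq2 size factors gave 9 for hcf-1(-) on hda-1 RNAi. Library totals gave 5 (hcf-1(-), day 1), 52, 48 and 56 (day 12 against day 1 in set-26(-), hcf-1(-) and control), and 4 and 8 (age by genotype).

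With the replicate block, where pairing within a population holds, counts were 14, 19 and 11 (hda-1 RNAi in set-26(-), hcf-1(-) and control), 18 (day 3 against day 1, hcf-1(-)) and 2 and 1 (diet by genotype). Between genotypes, which share a number only (on hda-1 RNAi at day 12 same-numbered libraries correlated at 0.235 to 0.345), the block gave 2 (set-26(-), day 1), 12 and 16 (set-26(-) and hcf-1(-), day 12 EV), and 25 and 24 (the same on hda-1 RNAi). It lost the call on nlp-26 in hcf-1(-) at day 1. Other counts stayed within 1.5 times.

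Leaving out each library in turn, where the lone sample left is assumed to vary like the other groups, gave 0 to 4 and 0 to 9 calls at day 1 (set-26(-) and hcf-1(-) against control), 4 to 17 and 8 to 17 at day 3, 1 to 11 and 1 to 21 at day 12 on EV, and 1 to 3 and 0 to 15 on hda-1 RNAi. For hcf-1(-) against set-26(-) it gave 0 to 1 at day 1 and 0 at day 12. For hda-1 RNAi it gave 0 to 3 in set-26(-), 2 to 7 in hcf-1(-), 0 in control, 11 to 16 on average at day 12 and 0 at day 3. For age it gave 7 to 29, 9 to 12 and 1 to 18 (day 3, set-26(-), hcf-1(-) and control), and 16 to 28, 23 to 25 and 10 to 16 (day 12). The interactions gave 0 to 5 and 3 to 6 (age, set-26(-) and hcf-1(-)) and 0 for both (diet). Depth limits nlp-32, at 0 to 50 reads, nlp-46, nlp-4 and flp-23, and nlp-39 at day 1.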

Other observations

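Peptide receptors were taken as 106 genes by symbol. From day 1 to day 12, 8 of 73 tested were higher and 4 lower in set-26(-), 13 of 76 higher and 3 lower in hcf-1(-), and 1 of 65 higher and 4 lower in control worms, beside 42%, 39.7% and 26.8% of all genes called either way. On hda-1 RNAi at day 12, 8 of 88 were higher and 2 lower on average over the genotypes, beside 16.1% of all genes.

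Neprilysins are membrane peptidases that break down peptides outside cells. Only nep-17 is described here, and the other neprilysins are not reported. At day 12 on EV, 4.67% of all genes were called either way in set-26(-) and 5.81% in hcf-1(-). nep-17, 1 of 23 in the table and called higher in both mutants at day 12 on EV, averaged 68.2 ± 0.61 CPM in set-26(-), 57.1 ± 3.47 CPM in hcf-1(-) and 17.9 ± 4.10 CPM in control worms at day 12 on EV (SD, n = 2), against 233 ± 9.51, 224 ± 25.3 and 243 ± 37.6 CPM at day 1. It fell between those days in each genotype, by 1.79, 1.98 and 3.80 on the log2 scale, and the fall differed from that in control worms by 1.97 in set-26(-) (edgeR adjusted p = 0.00627) and 1.76 in hcf-1(-) (edgeR adjusted p = 0.0101). trh-1, which encodes a thyrotropin-releasing hormone-like precursor, rose between those days by 1.83 in set-26(-), 1.72 in hcf-1(-) and 3.27 in control worms. Of all genes, 42%, 39.7% and 26.8% were called either way between those days in the same order. Other scalings and left-out libraries were checked for flp and nlp genes only, so not for nep-17 or trh-1.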
